A study of Mus musculus with 12 samples.

Results

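The heat shock genes of mouse liver were followed in 10 genes: Hspa1a, Hspa1b, Hspa8, Hsph1, Dnajb1, Dnaja1, Hsp90aa1, Hspb1, Hspd1 and Bag3. They were chosen by name, with earlier results of these data known. They were found by matching the Ensembl identifiers of the deposited table to mouse symbols. All 10 were among its 28036 genes and passed the filter on low counts. RNA was measured in 12 livers of the inbred mouse strain C57BL/6J, 3 in each of 4 groups. The EE group had metabolic dysfunction-associated steatohepatitis (MASH, a fatty and inflamed liver) brought on by a high-fat diet and then received Eleutheroside E (EE), a lignan glycoside found in plants, in oral doses of 100 mg/kg. The resmetirom group had the same diet model and was given oral resmetirom, which activates thyroid hormone receptor beta, at 3 mg/kg. The MASH group had the diet model and vehicle (0.5% CMC-Na), and the control group ate normal chow and received the same vehicle. The diet model ran for 8 weeks before 4 weeks of dosing, and all livers are labelled 12 weeks. The labels give no sex and no age of the mice, and do not say what carried the dosed compounds or whether a sample is a single animal. A liver is named by its group and its replicate (EE 3).

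Heat shock proteins are chaperones, which bind unfolded proteins and help them to fold or to be degraded. In the cytosol, HSP70 proteins (Hspa1a, Hspa1b, Hspa8) work in cycles of ATP hydrolysis that J-domain proteins (Dnajb1, Dnaja1) speed up and that nucleotide exchange factors (Hsph1, Bag3) reset, and HSP90 (Hsp90aa1) receives clients from HSP70. Hspb1 is a small heat shock protein that holds unfolding proteins without ATP. Hspd1 is the chaperonin HSP60 of the mitochondrial matrix: the name cytosolic covers the other genes listed, but not this one. Heat, oxidants and protein damage release heat shock factor 1 (Hsf1), which binds heat shock elements, inverted repeats of GAA and TTC, in front of these genes. In liver the inducible members also follow body temperature and feeding over the day.

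RefSeq promoter windows (GRCm38.p6, an older build than the GRCm39 that the submitters' processing notes name) were at hand for 8 of the 10 genes. They were searched for GAANNTTC and TTCNNGAA, a pair of adjoining heat shock units, each of which reads the same on both strands, and for GAANNTTCNNGAA and TTCNNGAANNTTC, which hold 3 units, are each other's reverse complement and overlap the pair motifs. A window covers 250 bases before and 50 after an annotated start. A pair was found in 8 of 13 member windows, from 7 of the 8 genes, against 15.1% of all 32851 windows, and 3 units in 3 of 13, from 2 genes, against 0.603% of all windows. The stretches printed here show every match before the start, with 10 bases on each side, for the genes that had one. Capitals mark the matched bases, and positions are counted from the annotated start. The stretch of Hspa1a lies at chr17:34972243-34972270, that of Hspa1b at chr17:34959325-34959352, that of Hspd1 at chr1:55088049-55088086 and that of Hsph1 at chr5:149636352-149636379, all on the minus strand. The stretch of Hspb1 lies at chr5:135887792-135887839 and that of Dnaja1 at chr4:40722334-40722361, both on the plus strand.
Hspa1a: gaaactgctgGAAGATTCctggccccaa
Hspa1b: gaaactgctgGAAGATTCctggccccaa
Hspb1: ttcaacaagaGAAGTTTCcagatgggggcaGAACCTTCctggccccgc
Hspd1: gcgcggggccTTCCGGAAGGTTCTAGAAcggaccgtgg
Hsph1: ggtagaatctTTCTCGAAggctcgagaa
Dnaja1: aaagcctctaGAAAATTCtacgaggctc
In Hspd1 the 3 overlapping pairs begin at −144, −139 and −134 and make up 2 matches to 3 units. In Hspb1 the pairs begin at −117 and −97, in Dnaja1 at −124, and in both Hspa1a and Hspa1b at −104. Hsph1 has a pair before the start and, after it, overlapping pairs that make up its match to 3 units. These begin at 15 and 20, or at 36 and 41 from its other annotated start. Bag3 has 1 pair, at 42, after the start. Dnajb1 had none of these letters in its windows, which says nothing of the factor's binding there.

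Hspa1a and Hspa1b are near-identical copies on chromosome 17, and reads of one can be assigned to the other, so the level of each is uncertain. Their promoters are shown in full because they differ at 3 of 250 bases, at chr17:34972157-34972406 for Hspa1a and chr17:34959239-34959488 for Hspa1b, both on the minus strand.
Hspa1a, 250 bases before the start: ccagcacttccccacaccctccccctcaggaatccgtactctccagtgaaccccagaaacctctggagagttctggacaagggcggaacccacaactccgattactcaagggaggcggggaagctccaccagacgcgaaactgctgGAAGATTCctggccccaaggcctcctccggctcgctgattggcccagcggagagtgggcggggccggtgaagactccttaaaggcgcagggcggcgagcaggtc
Hspa1b, 250 bases before the start: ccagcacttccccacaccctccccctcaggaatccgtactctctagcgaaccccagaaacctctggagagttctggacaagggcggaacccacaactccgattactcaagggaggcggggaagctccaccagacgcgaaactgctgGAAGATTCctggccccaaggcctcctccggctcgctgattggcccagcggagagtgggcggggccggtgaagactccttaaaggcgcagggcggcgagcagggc
The deposited values of the pair are fractional (399.90 and 2443.09 expected counts in EE 3), so reads were divided between them.

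The library totals ranged from 17297864 to 21793311 counts. Levels are in CPM (counts relative to library size, with sizes adjusted by TMM), and fold changes are log2 values with their SE from edgeR. Control 1, resmetirom 1 and resmetirom 2 stood apart from the other libraries: transcripts of the mitochondrial genome made up 35.4% of control 1 and 2.40% to 4.38% elsewhere, and those of major urinary protein genes 35.7% of resmetirom 2 and 3.33% to 16.0% elsewhere. Resmetirom 1 had the most stellate, monocyte or macrophage and Kupffer cell marker RNA and the least hepatocyte marker RNA, with values given among the cell markers. The TMM factors were lowest in control 1 (0.508) and resmetirom 2 (0.663), against 0.960 to 1.41 elsewhere, and a low factor raises CPM. The labelled tissue held: the 9 hepatocyte markers (such as Alb and Ttr) summed to at least 57142 CPM in every liver. In a piece of tissue, fewer cells of a type and less RNA per cell cannot be told apart. Counts behind the members ran from 12 (Hspa1a in control 1) to 36594 (Hspa8 in control 2).

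In 9 of the 10 genes the mean level was highest in the EE livers, and for Hsp90aa1 it was highest in the controls. No gene separated EE from control without overlap. All 10 genes had a positive log2 fold change of EE against MASH, with a median of 0.85, against 47.6% of the 13988 tested genes and a median of −0.02 over all of them. In 6 genes (Hspa1a, Hspa1b, Hspa8, Hsph1, Dnajb1 and Bag3) every EE liver lay above every MASH liver, against 16.7% of all tested genes, and none lay lower without overlap, against 15.5%. Hspa1a and Hspa1b, between which reads were divided, are counted separately here and below, though they are not independent measures. Because the members were chosen with earlier results of these data known, shares of all genes here and below are descriptive and no test of the set. No member passed the test in any comparison (edgeR quasi-likelihood test, Benjamini-Hochberg adjusted p below 0.05). In EE against MASH, 0.00715% of all genes (1 gene) passed by edgeR. An unadjusted p below 0.05 was reached there by 4 of the 10 by edgeR, against 7.49% of all genes, by 6 by DESeq2, against 8.90%, and by 4 by limma voom, against 7.76%, and neither of these tools called a member after adjustment.

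**Figure D1:**
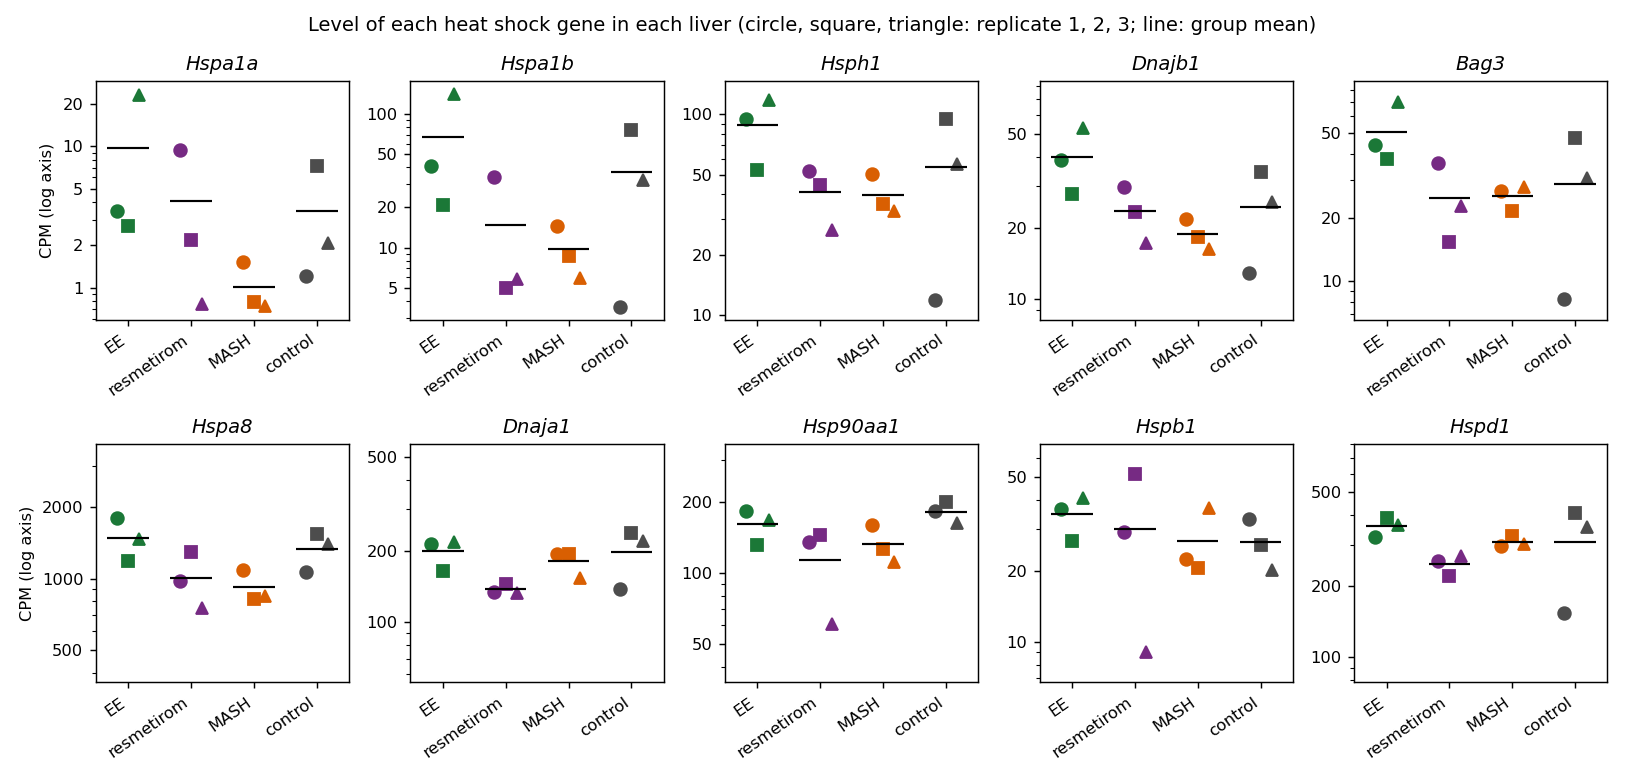
CPM of the 10 genes (log axis) in each of 12 livers, by group. Points are livers (circle, square and triangle for replicates 1, 2 and 3) and lines are group means. EE 3 is the highest liver in 5 panels and control 1 the lowest in 5.

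Hspa1b, the more abundant copy of the stress-inducible HSP70, stood at 41.1, 20.8 and 141 CPM in EE 1, EE 2 and EE 3, at 33.5, 5.02 and 5.79 CPM in the resmetirom livers, at 14.6, 8.70 and 5.90 CPM in the MASH livers and at 3.62, 75.4 and 31.9 CPM in the controls. EE 3 was the highest of all livers and 39.0-fold above the lowest, control 1, and every EE liver lay above every MASH liver. The log2 fold change of EE against MASH was 2.80 ± 1.03 (SE, n = 3 each; edgeR adjusted p = 0.618). Leaving out EE 3 brought it to 1.68, in a fit with 2 EE livers. Against controls EE differed by 0.86 ± 0.97 (edgeR adjusted p = 0.685), and MASH against control by −1.94 ± 1.00 (adjusted p = 0.586), or −0.89 without control 2.

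Hspa1a, its near-identical copy, stood at 3.49, 2.72 and 23.1 CPM in EE 1, EE 2 and EE 3, at 9.36, 2.17 and 0.769 CPM in the resmetirom livers, at 1.51, 0.795 and 0.742 CPM in the MASH livers and at 1.21, 7.23 and 2.08 CPM in the controls. All EE livers were above all MASH livers, while resmetirom 1 was second only to EE 3. The log2 fold change was 3.26 ± 1.05 for EE against MASH and 2.04 ± 1.03 for resmetirom against MASH (edgeR adjusted p = 0.595 and 0.378). Without EE 3 the first was 1.62, and without resmetirom 1 the second was 0.50. With the counts of both copies summed, EE against MASH gave 2.85 ± 1.03 (adjusted p = 0.609).

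The constitutive HSP70, Hspa8, was far more abundant and varied less. It stood at 1798, 1192 and 1466 CPM in EE 1, EE 2 and EE 3, at 979, 1293 and 754 CPM in the resmetirom livers, at 1087, 822 and 845 CPM in the MASH livers and at 1062, 1547 and 1397 CPM in the controls. The EE livers lay above the MASH livers by 0.69 ± 0.28 on the log2 scale (SE, n = 3 each; edgeR adjusted p = 0.627). With the replicate number as a block in those 6 livers, an alternative chosen after seeing the data that called 2745 genes in all, Hspa8 passed (0.68; edgeR adjusted p = 0.00369). MASH lay below control by a log2 fold change of −0.54 ± 0.28 (adjusted p = 0.586), with 1 control liver inside the MASH range. Per kilobase of exon, the inducible pair came to 3.79%, 3.01% and 17.04% of Hspa8 in the EE livers, to 6.65%, 0.839% and 1.33% in the resmetirom livers, to 2.26%, 1.76% and 1.198% in the MASH livers and to 0.688%, 8.15% and 3.72% in the controls. The share in each EE liver was above that in each MASH liver, and control 1 had the lowest of all. Exon lengths here merge all annotated transcripts of a gene, so the size of these shares is approximate.

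**Figure D2:**
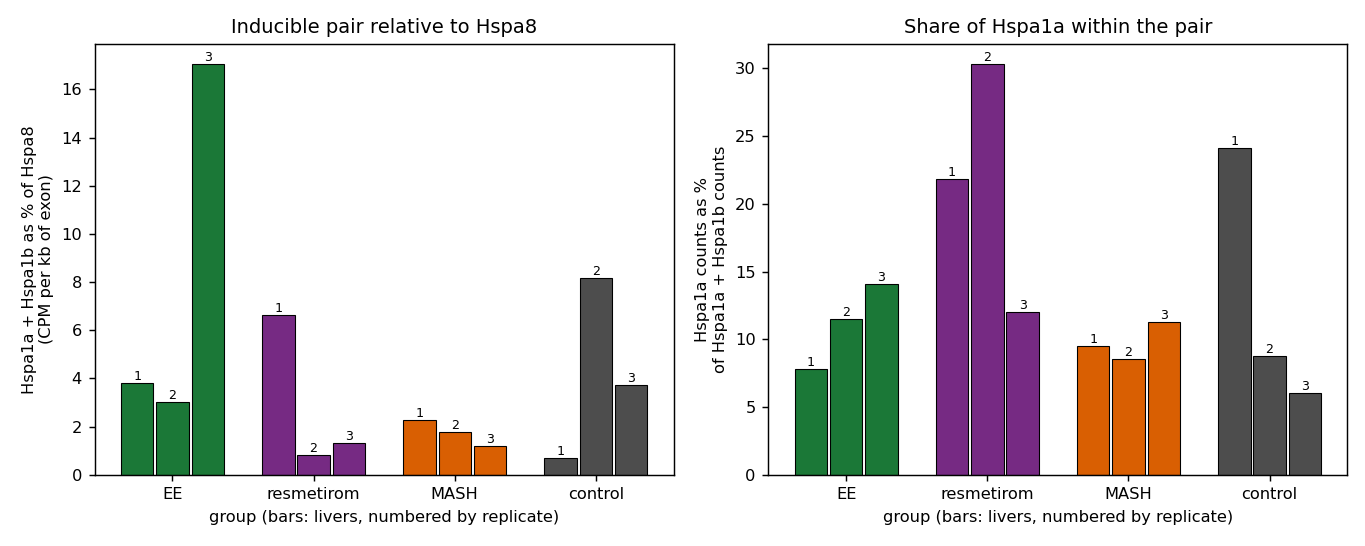
Left, Hspa1a plus Hspa1b as a percentage of Hspa8 (CPM per kilobase of exon) in each liver; right, Hspa1a as a percentage of the counts of the pair. Bars are livers, numbered by replicate. The left panel peaks at 17.04% in EE 3 and the right at 30.3% in resmetirom 2.

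The split of counts within the pair was not the same in all livers. Hspa1a took 7.82%, 11.5% and 14.1% of the pair's counts in the EE livers, 21.8%, 30.3% and 12.0% in the resmetirom livers, 9.49%, 8.55% and 11.3% in the MASH livers and 24.1%, 8.75% and 6.07% in the controls. The exact Clopper-Pearson 95% interval was 21.3% to 40.4% in resmetirom 2 and 13.6% to 39.6% in control 1, where the pair had few counts, and 19.4% to 24.4% in resmetirom 1. The interval of MASH 1 was 6.53% to 13.03%, and that of control 2 was 7.54% to 10.1%. Reads are not independent molecules, and these intervals cover counting error only.

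Hsph1, an HSP110 protein that exchanges the nucleotide of HSP70, stood at 94.9, 53.0 and 117 CPM in the EE livers, at 52.2, 44.2 and 26.4 CPM in the resmetirom livers, at 50.5, 35.8 and 33.04 CPM in the MASH livers and at 11.9, 94.998 and 56.5 CPM in the controls. All EE livers exceeded all MASH and all resmetirom livers, by log2 fold changes of 1.15 ± 0.56 and 1.11 ± 0.56 (SE, n = 3 each; edgeR adjusted p = 0.691 and 0.480). Control 1 was the lowest of the 12 livers, and without it the other controls lay within the EE range.

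Bag3, which links HSP70 to autophagy of damaged proteins, stood at 44.0, 38.0 and 70.6 CPM in the EE livers, at 36.0, 15.4 and 22.6 CPM in the resmetirom livers, at 26.6, 21.4 and 27.9 CPM in the MASH livers and at 8.24, 47.4 and 30.9 CPM in the controls. Here too the EE livers overlapped with neither MASH nor resmetirom livers. The log2 fold change was 1.01 ± 0.50 against MASH and 1.04 ± 0.50 against resmetirom (edgeR adjusted p = 0.696 and 0.445). With the replicate block in the EE and MASH livers alone, Bag3 passed against MASH (0.96, edgeR adjusted p = 0.00498). That fit, chosen after seeing the data, called 2745 of 13248 genes.

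Among the J-domain proteins, Dnajb1, the partner of inducible HSP70, stood at 38.6, 27.7 and 53.2 CPM in the EE livers, at 29.9, 23.3 and 17.3 CPM in the resmetirom livers, at 21.8, 18.3 and 16.2 CPM in the MASH livers and at 12.9, 34.5 and 25.8 CPM in the controls. EE and MASH livers did not overlap, with a log2 fold change of 1.09 ± 0.35 (SE, n = 3 each; edgeR adjusted p = 0.595). Dnajb1 was the 1 member with an unadjusted p below 0.05 in the test of any difference among the 4 groups (adjusted p = 0.242), a mark that 19.2% of all genes reached, while 1.60% of them passed after adjustment. DESeq2 gave 4 members (24.7% of all genes) and limma voom none (16.6%) at an unadjusted p below 0.05 in that test, and neither called any. When only the EE and MASH livers were fitted, Dnajb1 passed (log2 fold change 1.08, adjusted p = 0.0428) and was the 1 member to do so, among 746 genes in all. With the replicate block in those 6 livers Dnajb1 did not pass (edgeR adjusted p = 0.0668).

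Dnaja1, a J-domain protein expressed without stress, had a narrower range of 133 to 238 CPM over all livers. It stood at 215, 165 and 217 CPM in the EE livers, at 134, 146 and 133 CPM in the resmetirom livers, at 194, 194 and 154 CPM in the MASH livers and at 138, 238 and 220 CPM in the controls. The resmetirom livers lay below all EE and all MASH livers. The log2 fold change was 0.53 ± 0.23 for EE against resmetirom and −0.39 ± 0.23 for resmetirom against MASH (edgeR adjusted p = 0.393 and 0.445), and EE against MASH was 0.14 ± 0.23 (adjusted p = 0.915). For resmetirom against control it was −0.53 ± 0.23 (adjusted p = 0.197), and Dnaja1 passed there when control 1 was left out (−0.74, adjusted p = 0.0465) or control 1 and resmetirom 2 both were (−0.77, adjusted p = 0.036).

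Hsp90aa1, the inducible cytosolic HSP90, had its highest mean in the controls. It stood at 183, 132 and 168 CPM in the EE livers, at 135, 144 and 60.7 CPM in the resmetirom livers, at 160, 126 and 111 CPM in the MASH livers and at 183, 200 and 163 CPM in the controls. Both MASH and resmetirom livers lay below all controls, by log2 fold changes of −0.46 ± 0.30 and −0.68 ± 0.30 (SE, n = 3 each; edgeR adjusted p = 0.669 and 0.199). Without resmetirom 3, the lowest of the 12 livers, the second was −0.38.

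Hspb1, the small heat shock protein, stood at 36.5, 26.6 and 40.7 CPM in the EE livers, at 29.3, 51.4 and 9.02 CPM in the resmetirom livers, at 22.3, 20.5 and 36.9 CPM in the MASH livers and at 33.1, 25.8 and 20.05 CPM in the controls. All groups overlapped, and the extremes of the series, resmetirom 2 and resmetirom 3, were in the same group. EE against MASH gave a log2 fold change of 0.38 ± 0.47 (SE, n = 3 each, edgeR adjusted p = 0.882). With the replicate block in those 6 livers Hspb1 passed (0.40, edgeR adjusted p = 0.0435). That fit, chosen after seeing the data, called 2745 of 13248 genes. In the main fit the log2 fold changes of Hspb1 ran from 0.02 ± 0.47 for MASH against control to 0.40 ± 0.47 for EE against control (edgeR adjusted p = 0.992 and 0.703).

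Hspd1, the mitochondrial chaperonin, stood at 323, 388 and 364 CPM in the EE livers, at 257, 221 and 268 CPM in the resmetirom livers, at 297, 327 and 300.4 CPM in the MASH livers and at 153, 410 and 358 CPM in the controls. The resmetirom livers lay below all EE and all MASH livers, with log2 fold changes of 0.53 ± 0.30 for EE against resmetirom and −0.31 ± 0.30 for resmetirom against MASH (edgeR adjusted p = 0.543 and 0.655). Control 1 was the lowest of all, in the library with the large mitochondrially encoded share, and its part in this value was not tested.

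**Figure D3:**
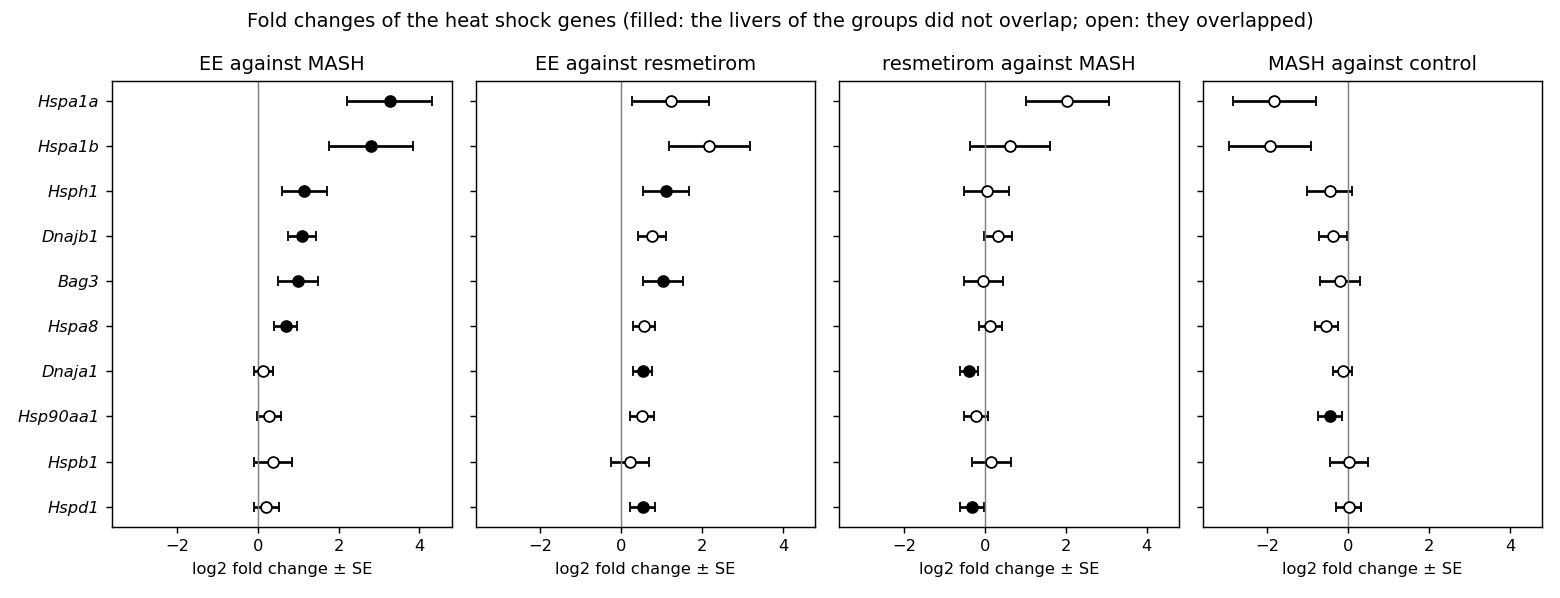
log2 fold change and SE of each gene in 4 comparisons (edgeR, n = 3 livers a group). Filled points are genes whose livers did not overlap between the groups, 6 of them in EE against MASH and 4 in EE against resmetirom. No point passed the adjusted test.

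Per kilobase of exon, Hspa8 had the highest mean level over the 12 livers (276 CPM per kb), followed by Hspd1 (116), Hsp90aa1 (37.4), Hspb1 (28.5), Dnaja1 (20.7), Bag3 (12.6), Hspa1b (11.5), Dnajb1 (8.31), Hsph1 (7.69) and Hspa1a (1.55). Exon length merges all annotated transcripts of a gene (8629 bases for Dnaja1, 2967 for Hspa1a). It can exceed the length of a single transcript, so this order is approximate. The highest liver exceeded the lowest 39.0-fold for Hspa1b, 31.1-fold for Hspa1a, 9.88-fold for Hsph1, 8.57-fold for Bag3, 5.70-fold for Hspb1 and 4.14-fold for Dnajb1, against 3.29-fold for Hsp90aa1, 2.67-fold for Hspd1, 2.39-fold for Hspa8 and 1.80-fold for Dnaja1. The SD of log2 CPM within groups was larger than the SD of the 4 group means in every gene except Hspa8. Means of 3 livers spread less than single livers, so these SDs are not on the same scale. The SD within groups was 1.55 log2 units for Hspa1b and 0.303 for Hspa8, and the SD of the 4 group means was 1.13 and 0.329.

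By group means, EE was the highest group in 9 of the 10 genes, the exception being Hsp90aa1. The lowest mean was that of MASH or resmetirom in 9 genes, and for Hspb1 that of the controls. Neighbouring groups in the order of means overlapped in every gene except Dnaja1, where the resmetirom livers lay below the MASH livers. Of the 12 livers, EE 3 was among the highest 3 in 9 genes, control 2 in 9 and EE 1 in 6. Resmetirom 3 was among the lowest 3 in 8 genes and control 1 in 6.

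**Figure D4:**
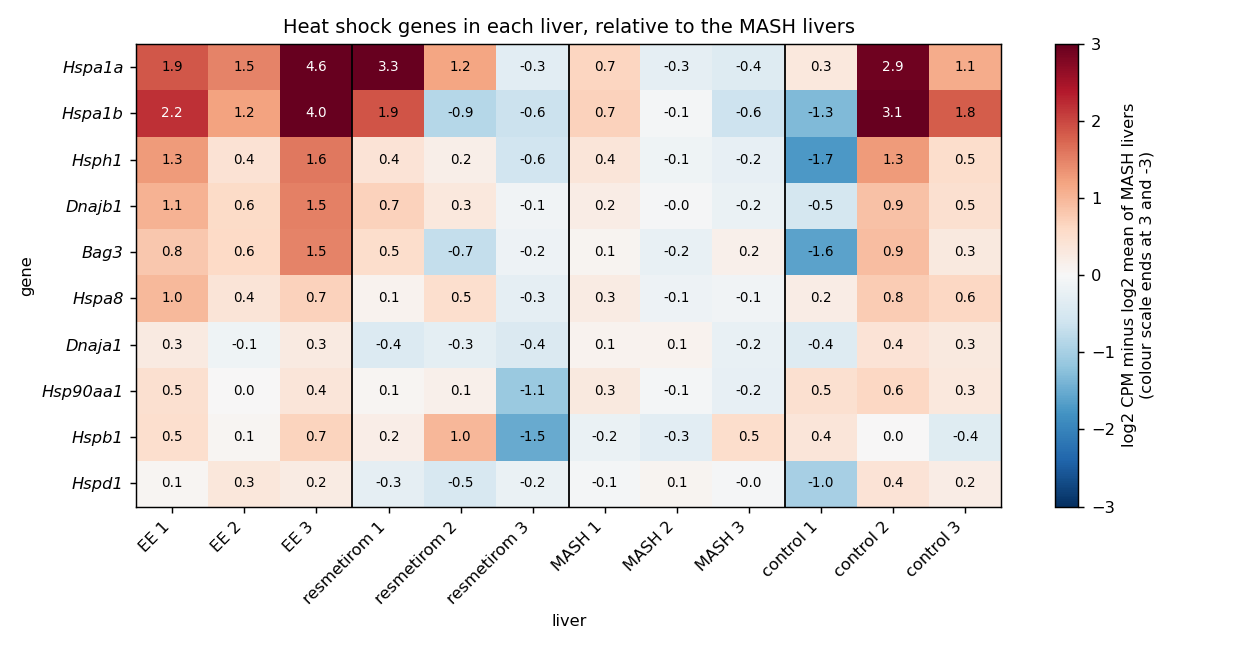
log2 CPM of each gene in each liver minus the log2 mean of the MASH livers. The EE columns are positive in all but 1 cell, with the largest value, 4.58, for Hspa1a in EE 3, and the control columns differ widely, from −1.72 to 1.28 in Hsph1.

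EE against resmetirom, the comparison of both treated groups, gave positive log2 fold changes in all 10 genes, against 42.4% of all tested genes, with a median of 0.66 against −0.08 over all tested genes. The groups did not overlap in 4 (Hsph1, Bag3, Dnaja1 and Hspd1), against 8.70% of all genes, and none lay lower without overlap, against 9.09%. By edgeR 2 had an unadjusted p below 0.05, against 11.8% of all genes. By DESeq2 6 did, against 13.3%, and by limma voom 1, against 10.9%, and no member passed by any of these tools, against 0.307% of all genes by edgeR. This comparison and that of EE with MASH share the EE livers. Resmetirom against MASH had a median of 0.09 against 0.06 over all genes, with 6 of 10 positive, against 54.2% of all genes. None lay higher without overlap, against 11.6%. Dnaja1 and Hspd1 lay lower without overlap, against 12.3% of all genes, an unadjusted p below 0.05 was reached by none by edgeR (15.0% of all genes) or limma voom (14.8%) and by 1 by DESeq2 (17.2%), and no member passed by these tools, against 0.665% of all genes by edgeR.

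MASH against control, the effect of the diet model, gave positive log2 fold changes in 2 of 10 genes, against 48.4% of all tested genes, with a median of −0.42 against −0.02 over all tested genes. Only Hsp90aa1 of the 10 did not overlap, lying lower, against 9.41% of all genes, and none lay higher without overlap, against 10.2%. An unadjusted p below 0.05 was reached by none by edgeR (9.23% of all genes) or limma voom (7.37%) and by 1 by DESeq2 (10.8%), and no member passed by any of these tools, against 0.0143% of all genes by edgeR. With control 1 and resmetirom 2 both left out, the log2 fold changes of Hspa8, Hsph1 and Dnajb1 were −0.67, −0.92 and −0.67, and without control 2 alone they were −0.42, 0.21 and −0.05. EE against control had a median of 0.55 with 9 of 10 genes positive, against 45.6% of all genes, and none without overlap, against 13.7% higher and 13.5% lower. With EE 3 left out Hspa1a and Hspa1b turned to −0.19 and −0.25. No member passed there, or had an unadjusted p below 0.05 (16.1% of all genes by edgeR, 18.5% by DESeq2 and 14.6% by limma voom), by any of the tools, against 0.100% of all genes by edgeR. Resmetirom against control had a median of −0.36 with 2 of 10 genes positive, against 51.3% of all genes. Hsp90aa1 lay lower without overlap, against 10.9% of all genes, and none higher, against 9.93%. In it, Dnaja1 and Hsp90aa1 had an unadjusted p below 0.05 by edgeR (22.9% of all genes did; 2 members did by DESeq2, against 25.04%, and 1 by limma voom, against 21.4%), and no member passed by any of the tools, against 3.16% of all genes by edgeR.

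The members varied together from liver to liver. Over 12 livers, 44 of the 45 pairs of members had a positive Pearson r of their log2 CPM, with a median of 0.63, as a description of livers that share 4 groups and library depth. Pairs of other genes were not counted, so how usual this is cannot be told. Hspa1a, Hspa1b, Hsph1, Dnajb1 and Bag3 were the tightest set, with r from 0.70 to 0.94 and a median of 0.89, a set chosen after its values were seen. With the group means removed, the r of these genes still ran from 0.69 to 0.96, and without control 1 their r was 0.79 to 0.95. Hspb1 had a median r of 0.25 to the other members, with 0.64 to Hsp90aa1 and 0.50 to Hspa8, and the median was 0.45 without control 1.

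**Figure D5:**
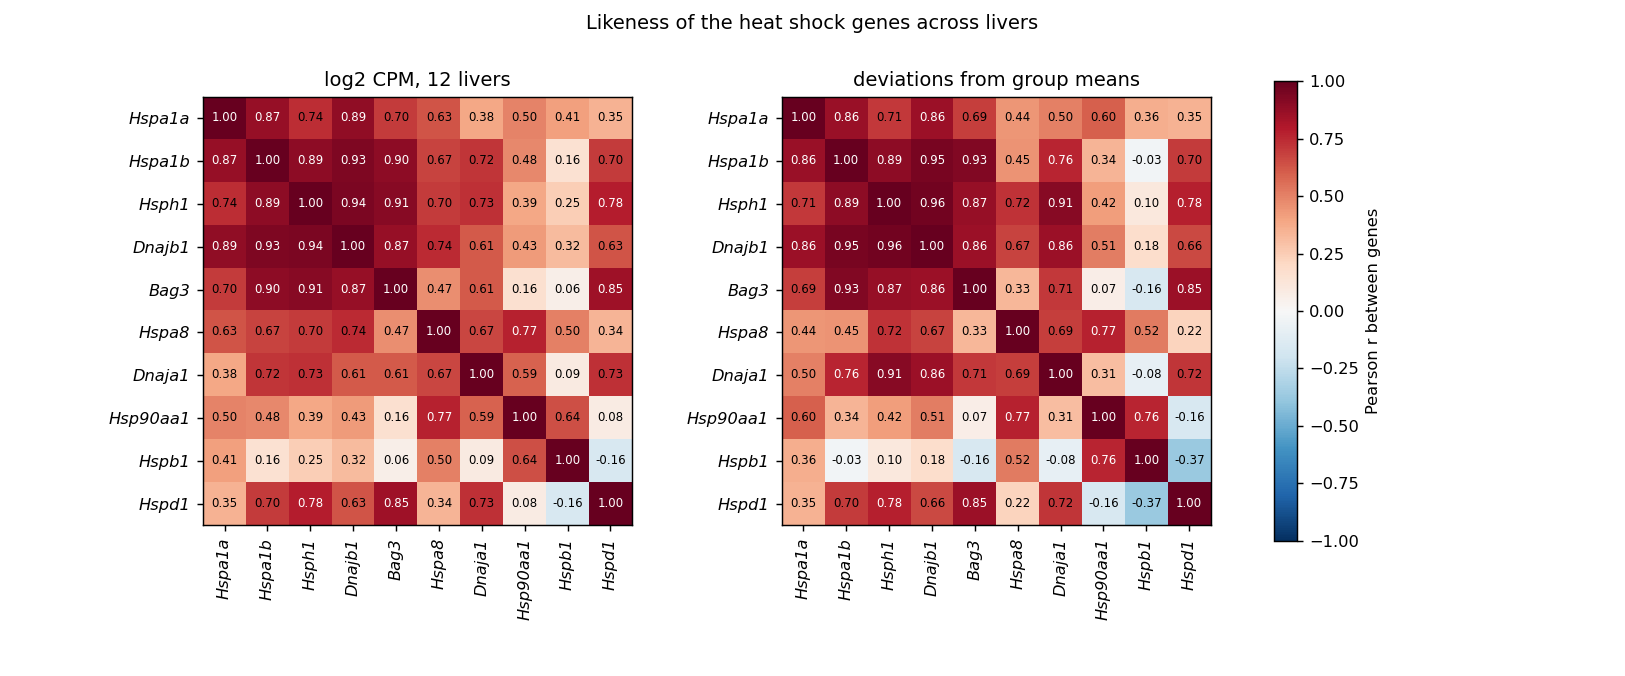
Pearson r between members over 12 livers, from log2 CPM (left) and from deviations from the group means (right). The block of Hspa1a, Hspa1b, Hsph1, Dnajb1 and Bag3 holds r from 0.69 to 0.96 in both panels, and the Hspb1 row lies near 0 for many genes.

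Outside the members, 11040 genes with a mean of at least 1 CPM were ranked by Pearson r with the mean scaled pattern of the members over 12 livers. The most alike were Slc15a4 (r = 0.89), a peptide and histidine transporter, Herpud1 (0.87), which takes part in degradation of proteins from the endoplasmic reticulum, P4ha1 (0.86), a prolyl hydroxylase of collagen, Ubfd1 (0.85), Ccdc117 (0.83) and Trim65 (0.82). Herpud1 stood at 607, 504 and 721 CPM in the EE livers, at 291, 328 and 270 CPM in the resmetirom livers, at 265, 219 and 221 CPM in the MASH livers and at 128, 513 and 491 CPM in the controls, highest in EE 3 and lowest in control 1. The most opposite were Iffo1 (−0.89), the splicing factor Srsf5 (−0.82), Exoc3l (−0.82) and Dqx1 (−0.81). With group means removed, the highest r were those of Actl6a (0.95), Adal (0.94), Arf1 (0.93), Scfd2 (0.93), Slc5a3 (0.93) and Pkp4 (0.92), and the lowest those of Inpp4a (−0.94), Hnrnpd (−0.94), Srsf5 (−0.93) and Nmnat3 (−0.93). The ranking picks extremes of many genes, and no test is attached to it.

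The regulators of the response were listed as a group. Hsf1, its main activator, stood at 10.7, 11.2 and 9.87 CPM in the EE livers and at 9.37, 8.24 and 8.86 CPM in the MASH livers, a log2 fold change of 0.26 ± 0.28 with no overlap (edgeR adjusted p = 0.866). Hsf1 was highest in resmetirom 2 (18.6 CPM) and control 1 (15.7 CPM), livers in which Hspa1b was among the lowest. Both libraries had the lowest TMM factors, which raise CPM, and Hsf4 and Hsbp1 were highest there too. The part of this scaling in the Hsf1 levels was not tested. Hsf4 and Hsbp1, a binding protein of Hsf1, also lay higher in EE than in MASH without overlap. Their log2 fold changes were 0.36 ± 0.37 and 0.10 ± 0.26 (edgeR adjusted p = 0.866 and 0.951). That made 3 of the 4 regulators, against 16.7% of all tested genes. For Hsbp1 the groups nearly met, at 52.2 CPM in EE 3 and 52.1 CPM in MASH 3. Hsf2 stood at 14.5, 10.3 and 11.9 CPM in the EE livers and at 15.4, 12.1 and 10.7 CPM in the MASH livers.

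Of 19 other genes of the heat shock response, 14 had a positive log2 fold change of EE against MASH (median 0.41), against 47.6% of all tested genes. Of the 19, 8 lay higher without overlap, against 16.7% of all genes, and none lower, against 15.5%. This list and those that follow were also chosen with earlier results of these data known. None of the 19 passed in either direction by edgeR, DESeq2 or limma voom, and 2, 3 and 2 of them had an unadjusted p below 0.05 by these tools, against 7.49%, 8.90% and 7.76% of all genes. Hspb8, a small heat shock protein and partner of Bag3, averaged 209.8 ± 13.2 CPM in EE and 143.8 ± 26.3 CPM in MASH (SD, n = 3 each), a log2 fold change of 0.55 ± 0.22 (edgeR adjusted p = 0.627). Dedd2 averaged 24.2 ± 5.10 against 14.4 ± 0.695 CPM, and the polyubiquitin gene Ubb 668 ± 53.0 against 437 ± 13.3 CPM. In resmetirom against MASH the median of these 19 was 0.32, with 11 positive, near the 54.2% of all tested genes. Dnaja4, a J-domain protein, averaged 7.66 ± 4.40 CPM in resmetirom and 3.22 ± 0.819 CPM in MASH (1.24 ± 0.38, edgeR adjusted p = 0.155). In that comparison DESeq2 called 1 of the 19, and 657 of all 13988 genes. Fkbp4, a co-chaperone of HSP90, averaged 271 ± 162 against 155 ± 7.26 CPM, with 455 CPM in resmetirom 2.

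Of the 8 subunits of TRiC, the cytosolic chaperonin, all were positive in EE against MASH (median 0.34) and 6 lay higher without overlap, against 47.6% and 16.7% of all tested genes, shares that also stand against the lists that follow. Cct7 averaged 109 ± 7.55 CPM in EE and 75.5 ± 6.26 CPM in MASH, and Tcp1 122 ± 7.10 against 93.8 ± 7.68 CPM. All 14 chaperones of the endoplasmic reticulum were positive (median 0.46), 5 without overlap. Sdf2l1 averaged 47.0 ± 8.49 against 22.6 ± 6.48 CPM, and Hspa5, the HSP70 of that compartment, stood at 1138, 482 and 654 CPM in the EE livers and at 846, 485 and 361 CPM in the MASH livers. Of 8 other mitochondrial chaperones and proteases, 7 were positive (median 0.21) and 6 lay higher without overlap, among them Lonp1 at 146 ± 12.9 against 122 ± 6.56 CPM. Constitutive cytosolic chaperones and co-chaperones had a median of 0.05, with 10 of 16 positive and 4 higher without overlap, near the 16.7% of all genes. None of the genes of these lists passed in EE against MASH by edgeR, DESeq2 (which gave 1 endoplasmic reticulum gene no adjusted p) or limma voom, and by each tool 1 of them, a TRiC subunit (Cct7 by edgeR), had an unadjusted p below 0.05.

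Several other measures moved beside the members, and their part in these results was not tested. The summed hepatocyte markers, 9 of 9 measured and none at 0, ran from 111620 to 120590 CPM in the EE livers, from 57142 to 97861 CPM in the resmetirom livers, from 83808 to 97497 CPM in the MASH livers and from 93234 to 163990 CPM in the controls, so that EE and MASH livers did not overlap. The 8 Kupffer cell markers, all measured and none at 0, summed to 365 to 483 CPM in EE, 301 to 798 CPM in resmetirom, 318 to 389 CPM in MASH and 63.9 to 331 CPM in the controls. The 8 markers of monocytes and macrophages, all measured, summed to 74.4 to 82.8 CPM in EE, 93.6 to 283 CPM in resmetirom, 127 to 138 CPM in MASH and 76.9 to 120 CPM in the controls. The 8 of hepatic stellate cells summed to 131 to 188 CPM in EE, 147 to 596 CPM in resmetirom, 227 to 260 CPM in MASH and 168 to 241 CPM in the controls. In both lists EE lay below MASH without overlap. Resmetirom 1, which had the most Hspa1a and Hspa1b of its group, held the highest value of the 12 livers in these 3 lists and the lowest hepatocyte sum. Immediate early genes, which respond within minutes to handling and signals, had a median log2 fold change of −0.01 in EE against MASH and 1.06 in resmetirom against MASH over 11 tested genes. The stress factor Atf3 stood at 32.5 CPM in resmetirom 1, the resmetirom liver with the most Hspa1a and Hspa1b, and at 4.62 CPM or less in every other liver. The clock gene Dbp stood at 43.8, 119 and 123 CPM in the EE livers, at 24.2, 55.4 and 111 CPM in the resmetirom livers, at 11.5, 83.2 and 90.2 CPM in the MASH livers and at 89.5, 93.9 and 89.0 CPM in the controls, lowest in replicate 1 of each diet-fed group. Per1, a clock gene that also answers to glucocorticoids and temperature, averaged 31.2 ± 12.7 CPM in EE and 8.54 ± 2.40 CPM in MASH (SD, n = 3 each), with no overlap, and differed by 1.87 ± 0.50 on the log2 scale (edgeR adjusted p = 0.582). Of the cold-inducible genes, which run against body temperature, Cirbp stood at 7.19, 13.2 and 8.66 CPM in the EE livers and at 9.41, 10.1 and 8.36 CPM in the MASH livers. Its highest levels over all livers were 19.5 CPM in control 1 and 14.7 CPM in resmetirom 3. Rbm3, the other cold-inducible gene, stood at 14.1, 21.9 and 13.6 CPM in the EE livers, at 25.4, 15.7 and 19.5 CPM in the resmetirom livers, at 19.4, 18.9 and 16.3 CPM in the MASH livers and at 33.2, 25.5 and 24.5 CPM in the controls. Control 1, whose TMM factor was the lowest and raises CPM, was highest in both genes. Control 2, high in most members, was second in Rbm3 and lowest in Cirbp. The part of this scaling in the levels of control 1 was not tested.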

How the data were processed

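RNA of 12 mouse livers was sequenced from stranded mRNA libraries as paired reads of 150 bases, per the labels' protocols, and the submitters' processing notes name fastp and GRCm39. Which aligner, counter, annotation release and strand setting made the counts is not given in the sources used here. Expected counts per Ensembl gene, unscaled, were deposited by the authors, and these were rounded. Symbols came from a GRCm38 table (22603 of 28036 identifiers), and exon lengths from the same annotation. An exon length counts every base in any annotated exon of a gene once.

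edgeR 4.0.16 in R 4.3.3 tested 13988 genes (filterByExpr; TMM, which trims extreme genes before it scales libraries; the quasi-likelihood test with robust dispersions) in 1 fit of all 12 livers with 8 residual degrees of freedom, in 6 pairwise comparisons and 1 test of any difference among the groups. The SE is the log2 fold change over the square root of F. Alternatives were DESeq2 1.42.0, limma voom 3.58.1, another scaling, other filters, fits of the compared groups alone, a replicate block, left-out livers and a sum of Hspa1a and Hspa1b. The labels name no shared animal or batch behind the replicate numbers. Deviations from group means of same-numbered livers correlated at 0.149 to 0.190 in EE and MASH and at −0.341 to 0.260 in the other comparisons. The main fit holds no block. For EE and MASH, where every pair correlated above 0.1, the blocked fit is given beside the genes whose call it changes. With 6 livers, that fit leaves fewer residual degrees of freedom than the 8 of the main fit. On simulated counts for EE against MASH (13726 genes), edgeR called 14% of 2-fold and 88% of 4-fold changes, with 5 unchanged genes. The changed genes were drawn from those with a mean of at least 5 CPM, which leaves out Hspa1a (4.60 CPM). These rates therefore do not describe single members. The labels do not say that replicates are separate animals beyond their numbers, so p-values measure the spread between these samples.

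Members and lists were chosen with earlier results of these data known. Named genes are the 10 members, up to 3 genes of each list with the smallest p in EE or resmetirom against MASH, the genes most like the members, and immediate early, cold-inducible and clock genes beside them. Herpud1's levels, Hspa5, Hsf1 in single livers, Atf3 and Dbp were picked after their values were seen.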

Additional observations from a re-analysis of the deposited data

How the results depend on the processing

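All 218 member values of EE against MASH kept a positive sign under every alternative run, and over all comparisons 54 of the alternative values of members changed sign, mostly of small differences. No member was called in EE against MASH by the edgeR fit of all 12 livers; 1 was in a fit of only the compared groups and 3 with a replicate block in those groups, where all genes called were 1, 746 and 2745. The replicate block in all 12 livers gave 0 members in any comparison. With it the genes called were 5 in EE against MASH, 19 in EE against resmetirom, 112 in resmetirom against MASH, 2 in MASH against control, 17 in EE against control and 327 in resmetirom against control, and 122 against 224 for any difference among the groups. The block was run in only the compared groups for EE against MASH alone. With control 1 and resmetirom 2 both left out, 1 member was called in resmetirom against control, among 1059 of all 14192 genes. Leaving out each liver in turn gave 0 to 1 members there, and 127 to 684 of all genes. Genes called by edgeR and by DESeq2 were 1 and 26 in EE against MASH, 43 and 410 in EE against resmetirom, 93 and 657 in resmetirom against MASH, 2 and 87 in MASH against control, 14 and 569 in EE against control, and 442 and 1560 in resmetirom against control. Without a filter the first count was 8, and leaving out livers in turn gave 0 to 1 there and 1 to 431 in resmetirom against MASH. The cause of these shifts was not tested.

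Signs turned as follows. With control 1 and resmetirom 2 both left out, EE against control gave −0.20 for Dnaja1 and −0.10 for Hspd1, MASH against control −0.30 for Hspd1, resmetirom against MASH 0.22 for Bag3, −0.084 for Hspa8, −0.46 for Hspb1 and −0.012 for Hsph1, and resmetirom against control −0.23 for Hspb1. In EE against control Dnaja1 was −0.019 with a filter at a mean of 1 CPM and −0.0017 in only the compared groups. In MASH against control, Hspb1 and Hspd1 were −0.0048 and −0.0052 by DESeq2 and −0.0025 and −0.0050 with scaling by relative log expression, and Bag3 was 0.072 by limma voom. By limma voom Hspb1 was −0.12 in resmetirom against MASH and −0.11 in resmetirom against control, where Hspa1a was −0.14.

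Leaving out each liver in turn moved the following across 0. In EE against control Dnaja1 ranged from −0.19 to 0.16, Hspa1a from −0.19 to 2.54, Hspa1b from −0.25 to 1.91 and Hspd1 from −0.085 to 0.49. In EE against resmetirom Hspa1a ranged from −0.40 to 2.77 and Hspb1 from −0.21 to 0.86. In MASH against control Bag3 ranged from −0.62 to 0.36, Dnaja1 from −0.34 to 0.019, Hspb1 from −0.29 to 0.22, Hspd1 from −0.31 to 0.27 and Hsph1 from −0.92 to 0.21. In resmetirom against MASH Bag3 ranged from −0.41 to 0.21, Hsp90aa1 from −0.44 to 0.074, Hspa1b from −0.84 to 1.02, Hspa8 from −0.091 to 0.30, Hspb1 from −0.48 to 0.59 and Hsph1 from −0.18 to 0.27. In resmetirom against control Bag3 ranged from −0.66 to 0.32, Dnajb1 from −0.36 to 0.27, Hspa1a from −1.34 to 1.30, Hspb1 from −0.46 to 0.62 and Hsph1 from −0.89 to 0.25. Depth limits Hspa1a most, with 12 to 400 counts a liver.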
